A study of Mus musculus with 7 samples.

Results

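The 41 genes described here belong to the p53 response and to the apoptosis machinery. They comprise p53 and its MDM regulators, p53 target genes, receptors grouped here as death receptors, the BCL2 family, caspases, inhibitors of apoptosis and mitochondrial death factors. They were taken from a list of 43 named genes by requiring a mean of at least 10 normalized counts in the authors' deposited table of 25239 genes. Bik and Fas were left out by that minimum, at 6.08 and 3.74 normalized counts, and the lowest gene kept was Birc3 at 28.0. The table compares wild-type C57BL/6J mouse cortex collected at E15.5 from embryos electroporated in utero at E13.5. In 3 brains, Breasi-CRISPR was used to turn threonine 280 of Ccnd2 (cyclin D2) into alanine, and in 4 brains it was used with a silent control. Each of 3 litters gave 1 Thr280Ala brain, and litter 1 gave 2 silent-control brains where the other litters gave 1 each. Breasi-CRISPR brings in Cas9 with a guide RNA and a donor DNA, so both groups went through electroporation and CRISPR delivery, and only the cells that took up the mixture could be edited. A response that both groups share does not show in this comparison, and no brain without electroporation was analysed here.

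The p53 protein is a transcription factor that is kept scarce by the ubiquitin ligase MDM2 and its partner MDM4. After DNA breaks or other stress it accumulates and switches on genes that halt the cell cycle, repair DNA, feed back on p53 itself or start apoptosis. In the mitochondrial path to apoptosis, BH3-only proteins relieve the BCL2-type inhibitors of their hold on BAX and BAK, which then open the outer mitochondrial membrane. Released cytochrome c assembles APAF1 and caspase-9 into the apoptosome, and the IAP proteins restrain the caspases. Neural progenitors and young neurons of the embryonic cortex are known to use this path, and p53-driven apoptosis of progenitors is known from mouse models of microcephaly.

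The deposited table holds 1 comparison and no value per brain, so each gene is given by its mean normalized count over all 7 libraries and by its log2 fold change with standard error (SE), Thr280Ala over silent control. The intervals are 95% intervals computed here from the fold change and its SE. Reads counted on genes per library, estimated from genes with a single read, lay between 19400000 and 32800000. The labelled tissue was reflected in high counts of Tubb3 and Dcx (neurons), Vim (radial glia) and Eomes (intermediate progenitors), at means of 59166, 45287, 20360 and 6480 normalized counts. The edited gene Ccnd2 averaged 27810 normalized counts over all libraries and stood at 0.08 (SE 0.25) per the authors' deposited table. In the bulk tissue, fewer cells of a type and less RNA per cell cannot be told apart.

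Among the p53 targets, the stretches of promoter that follow show the sequence p53 is known to read. They were chosen because each holds an exact match to the p53 half-site consensus upstream of a RefSeq start site. In Sesn1, Polk and Aen the stretch lies inside the span annotated for the gene, so that start is not the outermost one. The half-site is in capitals, the strand is that of the gene, 5′ to 3′, and the build is GRCm38.p6 (mm10). The stretches lie at chr7:45467065-45467124 on the minus strand for Bax, chr10:41887241-41887300 on the plus strand for Sesn1, chr10:117710910-117710969 on the minus strand for Mdm2, chr11:40755437-40755496 on the minus strand for Ccng1, chr7:78895912-78895971 on the plus strand for Aen and chr13:96519384-96519437 on the minus strand for Polk.
Bax: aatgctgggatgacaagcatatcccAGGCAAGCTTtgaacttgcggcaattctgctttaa
Sesn1: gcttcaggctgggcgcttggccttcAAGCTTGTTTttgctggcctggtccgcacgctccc
Mdm2: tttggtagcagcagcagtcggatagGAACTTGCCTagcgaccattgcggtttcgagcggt
Ccng1: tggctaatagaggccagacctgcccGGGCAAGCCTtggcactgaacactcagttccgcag
Aen: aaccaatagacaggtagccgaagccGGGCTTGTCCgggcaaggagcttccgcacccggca
Polk: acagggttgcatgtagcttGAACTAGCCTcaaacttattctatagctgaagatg

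The half-sites began 201 bases before a RefSeq start site in Bax, 173 in Sesn1, 186 in Mdm2, 185 in Ccng1, 121 in Aen and 231 in Polk. The half-site of Aen also lies after another RefSeq start of that gene. The search covered windows from 250 bases before to 50 after each RefSeq start. The consensus reads the same on both strands, so 1 pass covered both. Of the 41 genes, 36 had a window. A half-site lay in 6 of the 11 p53 targets with a window (54.5%) and in 3 of the 25 other members with one (12.0%), which were Bmf, Birc2 and Trp53. Of all tested genes with a window, 957 of 11582 (8.26%) held one. Counted by window, the shares were 41.2% of 17 windows of the p53 targets and 6.88% of 14775 windows of tested genes. The half-site of Aen lay in 2 overlapping windows and was counted in each. In Bax and Sesn1 the half-site lay next to an imperfect one, with 2 mismatches in the pair. Pairs with at most 13 bases between them and at most 2 mismatches were found in 1.66% of the windows of tested genes. A match is a description of the letters and not a bound site, and the known p53 sites of several targets, that of Mdm2 among them, lie in introns outside these windows. In the authors' deposited table the 6 genes with a printed half-site stood at -0.06 (SE 0.09) for Bax, -0.03 (SE 0.12) for Sesn1, 0.15 (SE 0.08) for Mdm2, 0.06 (SE 0.12) for Ccng1, 0.02 (SE 0.09) for Aen and -0.11 (SE 0.25) for Polk. Of these, 3 lay above 0 and 3 below, and each interval included 0.

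The comparison asked whether p53 response and apoptosis transcripts were higher or lower 2 days after the Ccnd2 edit than after the silent control. None of the 41 genes passed. At an adjusted p below 0.05, 0 of 41 were called by the authors' DESeq2 test, in which 36 of 14638 tested genes (0.246%) were called, and the smallest adjusted p among the members was 0.800. At an unadjusted p below 0.05 there was 1 member, Pmaip1, or 2.44% of the members, beside 5.86% of all tested genes. At an adjusted p below 0.1 the count was also 0, where 0.389% of tested genes passed. An unadjusted p below 0.1, a threshold chosen after the values were seen, was found in 6 members (14.6%) and in 10.5% of all tested genes. Of these 6, Trp53inp1, Mdm2 and Trp53 lay above 0 and Pmaip1, Plk2 and Birc3 below. Above 0 lay 24 members and below 0 lay 17, with a median log2 fold change of 0.02, where 48.0% of all tested genes lay above 0 and their median was -0.01. The log2 fold change was under 0.1 in size in 21 members (51.2%), beside 49.7% of all tested genes, and under 0.25 in 38 members (92.7%), beside 78.2% of all tested genes. These shares are not matched for abundance. A mean of at least 100 normalized counts was reached by 35 of the 41 members, while tested genes went down to 7.08.

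**Figure D1:**
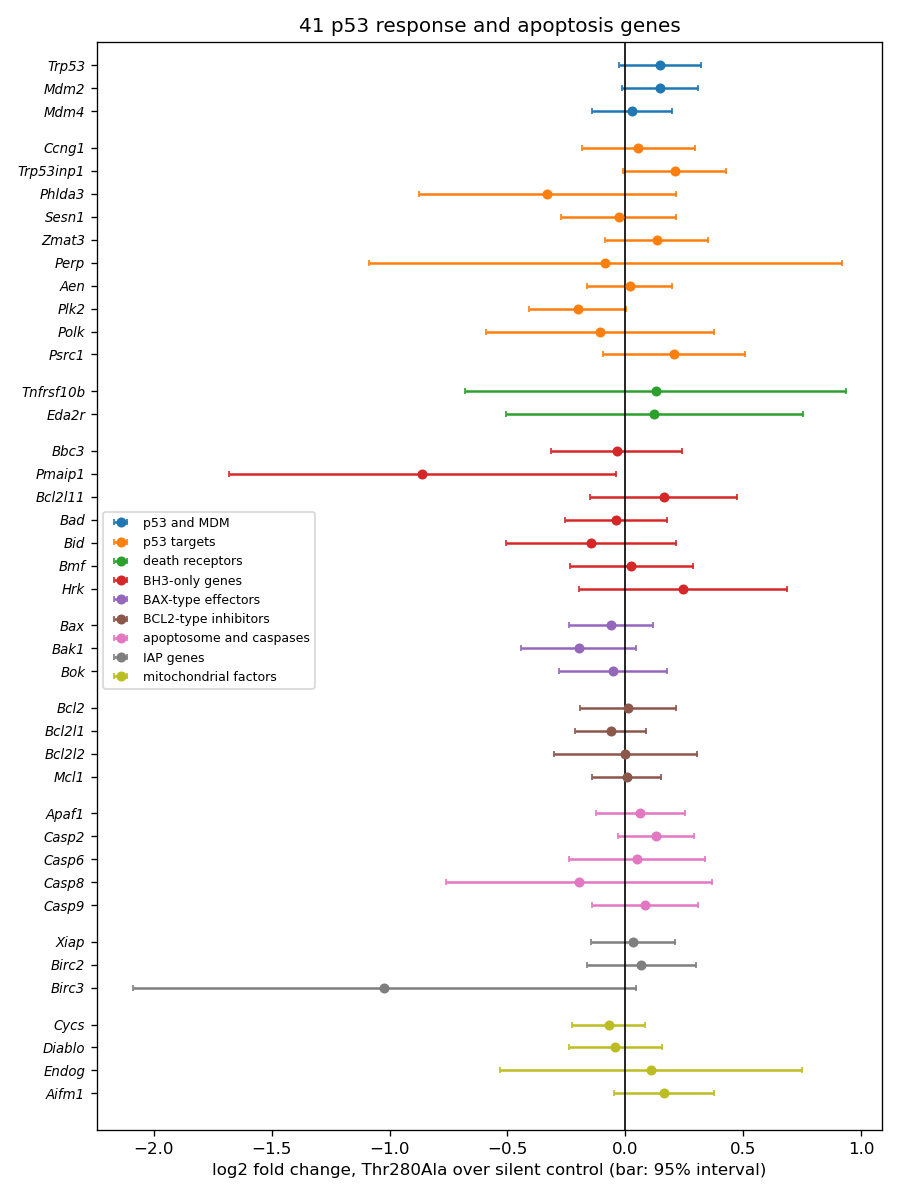
Log2 fold change of each of the 41 genes (x axis, Thr280Ala over silent control; points, the authors' deposited values; bars, 95% intervals), in rows by role. The intervals of 40 genes cross 0, and that of Pmaip1 runs from -1.68 to -0.04.

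How large a difference in the bulk tissue could have gone unseen is given by the intervals. They do not bound a difference confined to the edited cells, whose share is not known here. For 31 of the 41 genes (75.6%) the whole interval lay within 1.5-fold in either direction, compared with 66.6% of all tested genes. The tested genes were not matched to the members for abundance, on which the width of an interval depends. Of the 10 with a wider interval, 6 had a mean under 100 normalized counts (Perp, Tnfrsf10b, Eda2r, Pmaip1, Birc3 and Endog). The other 4 were Phlda3, Polk, Hrk and Casp8, with means between 106.8 and 187.9. The interval reached beyond 2-fold in 3 genes, Perp, Pmaip1 and Birc3.

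Transcripts of p53 and of its MDM regulators were slightly above 0 and did not pass. Trp53 encodes p53 itself (chromosome 11, 69580359 to 69591873), whose activity is set largely through protein stability. It had a mean of 3023.4 normalized counts and stood at 0.15 (SE 0.09, unadjusted p = 0.0929, adjusted p = 0.934) per the authors' deposited table. Mdm2, the ligase that degrades p53 and is itself a p53 target (chromosome 10, 117688875 to 117710758), stood at 0.15 (SE 0.08, unadjusted p = 0.0727, adjusted p = 0.912) there, at a mean of 1572.7. Mdm4, which binds p53 and blocks its activation domain, stood at 0.03 (SE 0.09) per the authors' deposited table. The intervals were -0.02 to 0.32 for Trp53, -0.01 to 0.31 for Mdm2 and -0.14 to 0.20 for Mdm4. A rise of Trp53 or Mdm2 beyond 1.25-fold in the bulk tissue lay outside them. The share of edited cells is not known here, so a larger rise confined to those cells is not bounded.

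The p53 targets did not lean one way. Of the 17 in the list 16 passed the minimum, 8 were above 0 and 8 below, and their median was -0.004. Trp53inp1, a stress-induced cofactor of p53, had the highest value of the 16, 0.21 (SE 0.11, unadjusted p = 0.0618, adjusted p = 0.881) per the authors' deposited table. Psrc1, a microtubule-binding protein of the mitotic spindle, followed at 0.21 (SE 0.15) per the authors' deposited table. Zmat3, an RNA-binding zinc finger protein, stood at 0.13 (SE 0.11) there. The cyclin G1 gene Ccng1, long used as a sentinel of p53 activity in mice, was close to 0, with an interval of -0.18 to 0.29.

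Below 0, Plk2, a polo-like kinase that also responds to neuronal activity (chromosome 13, 110395046 to 110400844), stood at -0.20 (SE 0.11, unadjusted p = 0.0556, adjusted p = 0.876) per the authors' deposited table. Its mean was 3495.0 normalized counts. Phlda3, an inhibitor of AKT, stood at -0.33 (SE 0.28) per the authors' deposited table, at a mean of only 187.9. Sesn1, a sestrin that restrains mTORC1, and Aen, a nuclease of apoptotic DNA breakdown, lay within 0.03 of 0. Perp, a membrane protein of p53-dependent death and of desmosomes, stood at -0.09 (SE 0.51) and the translesion polymerase gene Polk at -0.11 (SE 0.25) per the authors' deposited table.

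The 3 receptor transcripts grouped here as death receptors were scarce. Tnfrsf10b, the mouse TRAIL receptor, and Eda2r, the receptor of ectodysplasin A2, had means of 54.7 and 64.4 normalized counts. They stood at 0.13 (SE 0.41) and 0.12 (SE 0.32) per the authors' deposited table, with intervals reaching from -0.68 to 0.94 and from -0.51 to 0.75. Fas, the receptor of FAS ligand, had about 26 normalized counts summed over all 7 libraries. Its fold change of 0.80 (SE 1.46) per the authors' deposited table spans -2.06 to 3.67, and no direction can be read from it.

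BH3-only transcripts held the only member with an unadjusted p below 0.05. Pmaip1 encodes NOXA, a p53-induced protein that neutralizes MCL1 (chromosome 18, 66458533 to 66465565). It stood at -0.86 (SE 0.42, unadjusted p = 0.0399, adjusted p = 0.800) per the authors' deposited table. Its mean was 41.3 normalized counts, or about 289 summed over all 7 libraries, and the interval ran from -1.68 to -0.04. An unadjusted p below 0.05 with a negative fold change was found in 3.66% of all tested genes. Bbc3, which encodes PUMA, the other BH3-only protein best known as a p53 target, had a mean of 410.7 and stood at -0.04 (SE 0.14) per the authors' deposited table. The interval of Bbc3 was -0.32 to 0.24.

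The remaining BH3-only genes lay on both sides of 0. Hrk, a neuronal BH3-only gene, stood at 0.24 (SE 0.23) and Bcl2l11, which encodes BIM, at 0.16 (SE 0.16) per the authors' deposited table. Bmf, tied to the cytoskeleton, stood at 0.03 (SE 0.13), Bad, controlled by AKT phosphorylation, at -0.04 (SE 0.11) and Bid, the link from death receptors to mitochondria, at -0.15 (SE 0.18) there. Bik, left out by the minimum, stood at -0.63 (SE 1.00) per the authors' deposited table on about 43 normalized counts in all. Over the 7 genes that passed, 3 were above 0 and the median was -0.04.

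The effectors and the inhibitors of the BCL2 family were measured more precisely. Bax, the main effector in neural cells (chromosome 7, 45461697 to 45466898), had a mean of 2271.5 normalized counts and an interval of -0.24 to 0.12. Bak1, its partner effector, stood at -0.20 (SE 0.12, unadjusted p = 0.111) and Bok at -0.05 (SE 0.12) per the authors' deposited table. All 3 effectors were below 0, and each interval included 0. Mcl1, an inhibitor that neural progenitors of the mouse are known to need (chromosome 3, 95658788 to 95663176), had a mean of 4912.2 normalized counts. It stood at 0.01 (SE 0.07) per the authors' deposited table, with an interval of -0.14 to 0.15. Bcl2l1, which encodes BCL-XL, the inhibitor of young neurons, stood at -0.06 (SE 0.08), Bcl2 at 0.01 (SE 0.10) and Bcl2l2, which encodes BCL-W, at 0.00 (SE 0.16) there. In all 4 inhibitors the fold change was under 0.1 in size.

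Genes of the apoptosome and the caspases were mostly just above 0. Apaf1, the scaffold of the apoptosome, stood at 0.06 (SE 0.10) and Casp9, the caspase it activates, at 0.09 (SE 0.11) per the authors' deposited table. Casp2, a caspase linked to p53 through the PIDDosome, stood at 0.13 (SE 0.08, unadjusted p = 0.112) there. The executioner caspase gene Casp6 stood at 0.05 (SE 0.15), and Casp8, the caspase of death receptors, at -0.20 (SE 0.29) per the authors' deposited table. The Casp2 interval was -0.03 to 0.29, and that of Casp8 was -0.76 to 0.37.

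The IAP genes included the lowest fold change among the 41. Birc3, which encodes cIAP2, an NF-kappa-B target (chromosome 9, 7848699 to 7873186), stood at -1.02 (SE 0.54, unadjusted p = 0.0605, adjusted p = 0.876) per the authors' deposited table. It had the lowest mean of the 41, with about 196 normalized counts summed over all 7 libraries, and its interval ran from -2.09 to 0.05. Its neighbour Birc2, which encodes cIAP1, had a mean of 909.0 and stood at 0.07 (SE 0.12), and Xiap, the direct inhibitor of caspases, stood at 0.03 (SE 0.09) per the authors' deposited table. Of the mitochondrial factors, Cycs (cytochrome c) stood at -0.07 (SE 0.08), Diablo, an antagonist of IAPs, at -0.04 (SE 0.10), Endog, a nuclease, at 0.11 (SE 0.33) and Aifm1, a flavoprotein, at 0.16 (SE 0.11) there.

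The levels of the members, set per kilobase of exon so that genes can be compared, spanned more than the fold changes did. Bax and Mcl1 led with 1441.3 and 1437.1 normalized counts per kb. Plk2, Trp53 and Bcl2l1 followed at 778.2, 747.4 and 688.3 normalized counts per kb. Within the inhibitors, Bcl2 and Bcl2l2 were far lower, at 146.8 and 133.5 per kb. Within the effectors, Bok had 512.3 and Bak1 223.7 normalized counts per kb. Of the BH3-only genes, Bad led with 255.1 and Bbc3 with 193.4 normalized counts per kb, against 26.2 for Hrk and 15.1 for Pmaip1. The lowest of the 41 was Birc3 at 5.59 normalized counts per kb, and Tnfrsf10b came next, just under Eda2r at 10.9 per kb. The table gives no spread between brains for a level, so the order of near neighbours cannot be tested. The lengths are of all exons annotated in GENCODE vM21, and the sources used here do not name the annotation the authors counted on. Over 20% of the exon bases of 4 members overlapped exons of other genes, most with a gene on the opposite strand. They were Diablo (40.9%, mostly B3gnt4), Endog (35.7%, mostly Spout1), Bak1 (25.5%, mostly Ggnbp1) and Bad (20.5%, mostly Gpr137). Smaller overlaps, mostly with a gene on the same strand, were found in Bax (12.2%, Gm45808) and Bcl2l2 (13.3%, Gm20521). Without a known strand setting, reads in any of these overlaps may be shared or dropped.

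**Figure D2:**
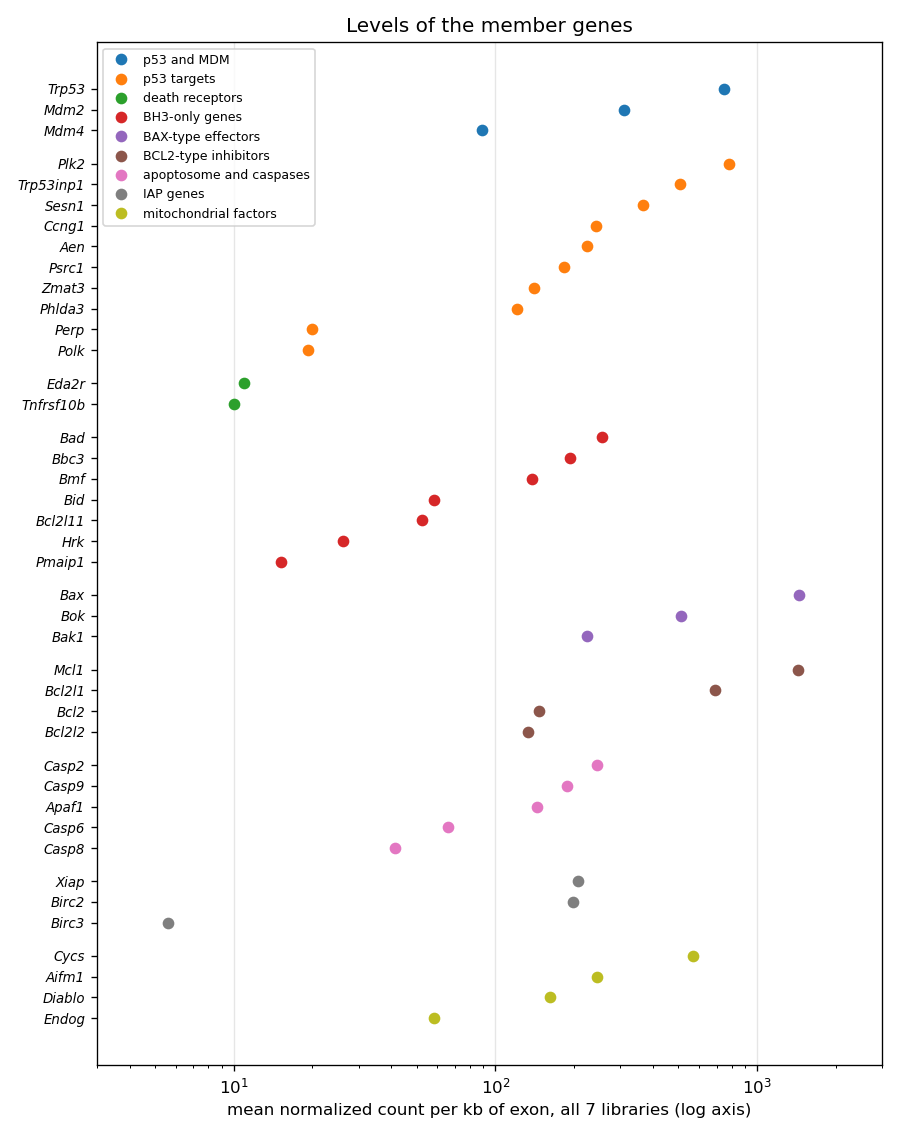
Mean normalized count per kb of exon over all 7 libraries (x axis, log scale) for the 41 genes, in rows by role and ordered by level within each role. Bax and Mcl1 lie highest, at 1441.3 and 1437.1, and Birc3 lowest, at 5.59.

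The SE of a fold change holds the spread between brains as well as counting error, as estimated by the authors' DESeq2 fit. With no value per brain, a ratio of such SEs is not a direct measure of a gene's spread between brains. Relative to tested genes within 2-fold of the same mean count, the SEs of the 41 members had a median ratio of 0.97 and a range of 0.83 to 1.34. The ratio was below 1 for 22 members and above it for 19, and no member had 1.5 times the SE of like genes. Trp53inp1, Phlda3, Plk2 and Sesn1 had the highest ratios, at 1.34, 1.28, 1.27 and 1.24. Of tested genes within 2-fold of the same mean count, 11.8%, 19.8%, 15.2% and 17.5% had a higher SE than these 4 genes, in that order. All 4, picked here by their values, are p53 targets. Of the other targets, Psrc1, Zmat3, Perp, Ccng1, Tnfrsf10b and Bax also had ratios above 1. Mdm2, Eda2r, Polk, Aen, Pmaip1 and Bbc3 had ratios below 1, with Mdm2 lowest at 0.84. Ccnd2, by the same measure, had a ratio of 3.62.

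**Figure D3:**
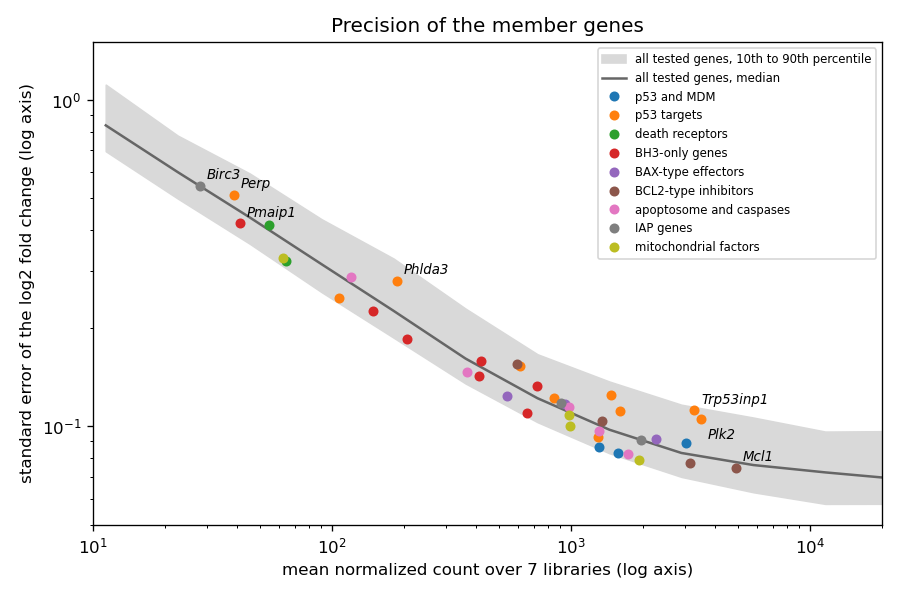
Standard error of the log2 fold change (y axis, log scale) by mean normalized count (x axis, log scale) for the 41 genes (coloured points), with the median (line) and the 10th to 90th percentile (band) of all tested genes. The members follow the line, from 0.54 for Birc3 to 0.07 for Mcl1.

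Among other genes of the same pathways none was called. Of 28 further p53 targets, 26 passed the minimum, 15 of them above 0, with a median of 0.03, a range of -0.38 to 0.23, 0 called and 0 at an unadjusted p below 0.05 by DESeq2. Those with the smallest p were Btg2, an antiproliferative gene, at 0.18 (SE 0.10), Rps27l at 0.21 (SE 0.14), Zfp365 at -0.38 (SE 0.26) and Plk3 at -0.30 (SE 0.24) per the authors' deposited table. Cdkn1a, the p21 inhibitor of CDKs and the best-known arrest target, was singled out for its role after its value was seen. It had a mean of 262.3 normalized counts and stood at -0.09 (SE 0.19, interval -0.45 to 0.28) per the authors' deposited table.

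Of 16 further regulators of p53, 14 passed the minimum, 9 of them above 0, with a median of 0.05, a range of -0.22 to 0.22, 0 called and 1 at an unadjusted p below 0.05 by DESeq2. That was Trp53bp2, which encodes the p53 cofactor ASPP2, at 0.16 (SE 0.08, unadjusted p = 0.0448, adjusted p = 0.819) per the authors' deposited table. Ppp1r13b, the gene of the related ASPP1, stood at -0.22 (SE 0.12), and the checkpoint kinase gene Chek1 at 0.22 (SE 0.19) there. All 21 further apoptosis genes passed the minimum, with 11 above 0, a median near 0, a range of -0.59 to 0.32, 0 called and 1 at an unadjusted p below 0.05. That was Parp1, a sensor of DNA breaks, at 0.18 (SE 0.08, unadjusted p = 0.0297, adjusted p = 0.744) per the authors' deposited table.

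Markers of several cell types stood away from 0 in the same comparison, though none of these markers was called. An unadjusted p below 0.05 by DESeq2 was found in 7 of 12 markers of microglia and macrophages and 4 of 7 of choroid plexus and hem. It was found in 4 of 8 of intermediate progenitors, 3 of 10 of radial glia and 3 of 10 of neurons. The counts were 2 of 10 for endothelium, 2 of 10 for dividing cells, 1 of 9 for meninges and 0 of 3 for erythroid cells. Of all tested genes, 5.86% passed that threshold. All 10 markers of dividing cells lay above 0, with a median of 0.24, as did 8 of 8 markers of intermediate progenitors, with a median of 0.21, and 8 of 10 of radial glia, with a median of 0.18. The 41 members had a median of 0.02, with 24 above 0 and 17 below. Of 10 neuronal markers 8 lay below 0, with a median of -0.08. All 12 markers of microglia and macrophages lay below 0, with a median of -0.64 and a range of -1.44 to -0.39, and all 10 endothelial markers lay below 0, with a median of -0.32. Of 9 markers of meninges and fibroblasts 7 lay below 0, with a median of -0.75. Their median SE was 1.16, larger than that median, so a shift of this list cannot be read from it. List medians lay on both sides of 0, so every member shares a side with some list, and sharing a side says nothing about a member. Below 0 were 17 members, among them Pmaip1 at -0.86, Birc3 at -1.02 and Plk2 at -0.20. Above 0 were 24 members, among them Trp53inp1 at 0.21, Mdm2 at 0.15 and Trp53 at 0.15. These named members were picked by their values, as those with an unadjusted p below 0.1 by DESeq2. Summed over their genes, the means were 3969.2 normalized counts for the 12 microglial markers and 6452.2 for the 10 endothelial markers. As single genes, Pmaip1 and Birc3 had means of 41.3 and 28.0. Which cells held the transcripts of these 2 genes cannot be read from such values. Erythroid markers could hardly be judged, since 4 of 7, all globin genes, were listed at 0 and the other 3 had a median of -0.23. Choroid plexus and hem markers stood high and wide, with 7 of 7 above 0, a median of 2.92 and a median SE of 1.58. The part of these cell types in the values of the members was not tested.

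**Figure D4:**
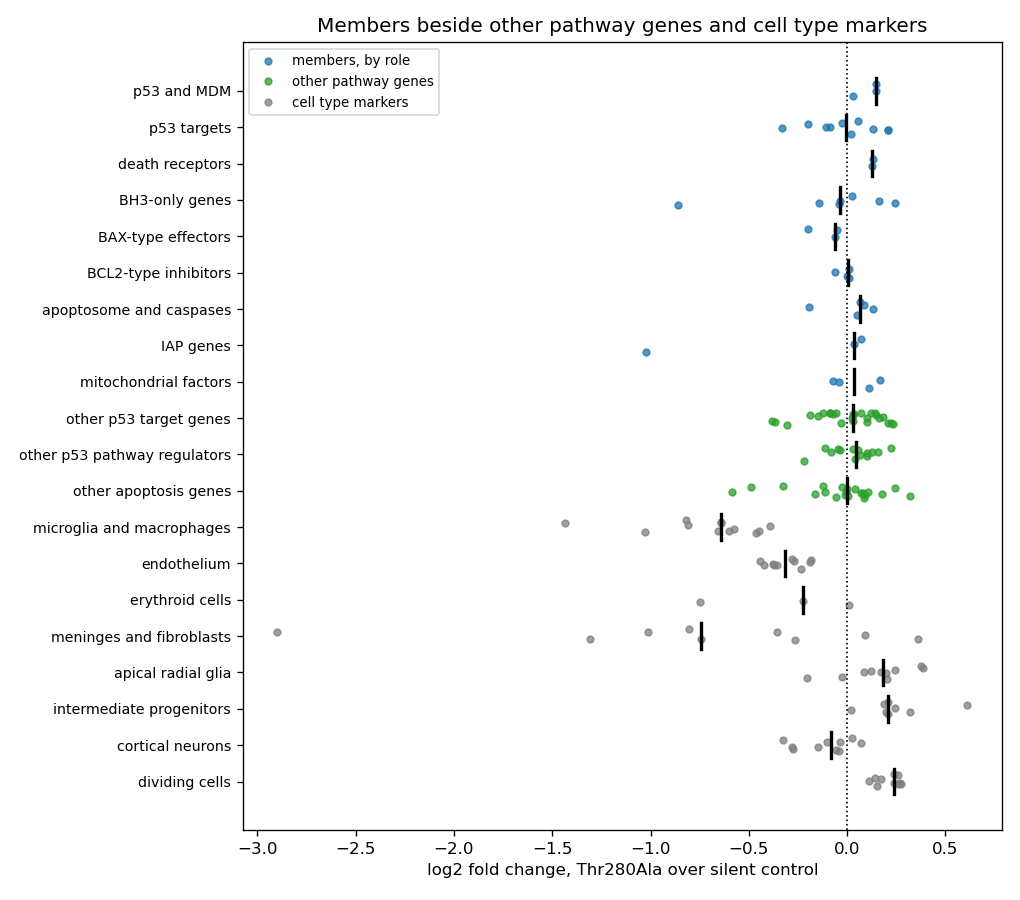
Log2 fold change (x axis, Thr280Ala over silent control) of single genes in each list (points) with the list's median (black bar), for the 41 members by role (blue), other genes of the same pathways (green) and cell type markers (grey). Pmaip1 and Birc3 lie apart from the other members, at -0.86 and -1.02, and choroid plexus and hem markers, with a median of 2.92, are not drawn.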

How the data were processed

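Polyadenylated RNA of 7 cortices (RNeasy kit, per the labels' protocols) was sequenced by the authors. The submitters' processing notes name cutadapt, featureCounts, DESeq2 and mm10, with no versions; aligner, annotation and strand setting are not stated there. The authors' deposited table holds, per the file headers, each gene's mean normalized count (a signal), log2 fold change with SE, Wald statistic (a score), p-value and adjusted p-value. It holds no value per library, so nothing was refitted.

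The table gives fold changes with both signs. Genes with a single read (694 genes in 7 classes, 3 above 0 and 4 below) were rebuilt to within 2.9e-05 by a negative binomial fit on litter and treatment, with positive values higher in Thr280Ala. Their size factors, multiplied by the summed mean normalized count of all genes, gave the reads counted on genes per library. Calls use the deposited adjusted p below 0.05, over 14638 genes. Benjamini-Hochberg values recomputed here differed from it by at most 4.01e-05, a step tested on simulated data. Intervals are the fold change ± 1.96 SE and assume normal errors. Exon lengths and positions come from GENCODE vM21 and promoters from RefSeq (GRCm38.p6). Python 3.11.15, numpy 2.4.6, pandas 2.3.3, scipy 1.17.1 and matplotlib 3.10.9 were used.

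The members, lists and tests were chosen with earlier results of these data known. Every member may be named, as may called genes and the 4 genes with the smallest p of each further pathway list and the 3 most abundant genes of each marker list. Alternatives were other minimum counts, another adjusted p, a threshold of 0.1 and centring on the median of tested genes. The brains are separate embryos, so p-values cover the spread between brains within litters. Some further genes of these pathways are not reported here.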

Additional observations from a re-analysis of the deposited data

How the results depend on the processing

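No paired analysis was possible because the deposited table holds no values per library. For the same reason no replicate could be left out. The authors' own fit already has litter as a term, as the rebuilt single-read genes showed. The count of members called stayed at 0 with no minimum count, with a minimum mean of 100 normalized counts, with Benjamini-Hochberg adjustment over all genes with a p-value, with centring on the median of tested genes and at an adjusted p below 0.1. The count at an unadjusted p below 0.05 was 1, and it was 0 with a minimum mean of 100, because Pmaip1 lies under that minimum. The median log2 fold change of the members ranged between 0.019 and 0.025 over these settings. That of the p53 targets was 0.019 with no minimum count and 0.002 after centring, where the value reported is -0.004. Depth limits the 6 members with a mean under 100 normalized counts, of which 3 have an interval reaching beyond 2-fold.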

Other observations

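The 2 BH3-only genes best known as p53 targets had different values. Pmaip1 stood at -0.86 (SE 0.42) and Bbc3 at -0.04 (SE 0.14) per the authors' deposited table, and their intervals overlap between -0.32 and -0.04. The difference between the 2 genes was not tested, since the table does not hold how their errors vary together.

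The neighbouring IAP genes Birc3 and Birc2 on chromosome 9 stood at -1.02 (SE 0.54) and 0.07 (SE 0.12) per the authors' deposited table, with means of 28.0 and 909.0 normalized counts. Their intervals, -2.09 to 0.05 and -0.16 to 0.30, overlap and both include 0. The difference between these genes was likewise not tested.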
